A study of Homo sapiens with 12 samples.

Results

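The 4 m6A peak lists of replicates 1 and 3 of a knockdown study in 143B cells, a human osteosarcoma cell line, were set against each other by replicate number. They are 4 of the 12 samples of the series, which holds 6 m6A immunoprecipitates and 6 inputs. Both numbers used poly(A) RNA, and the protocol text gives them different antibodies, one from Synaptic Systems for replicate 1 and ABE572 from Millipore for replicate 3. The labels' antibody field names the replicate 1 antibody for every immunoprecipitate, so the antibody of replicate 3 rests on the protocol text. Within each number, 1 library came from cells given ALKBH5 siRNA (called knockdown) and 1 from cells given scrambled siRNA (called control), both taken 48 h after transient transfection. All 4 libraries share the parental line, the lipid transfection and the fragmentation of RNA before precipitation. The replicate number stands for the antibody together with everything else that differed between the runs, and these cannot be told apart.

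N6-methyladenosine, m6A, is an internal mark of messenger RNA. It is written by a nuclear complex built on METTL3, METTL14 and WTAP, removed by FTO and ALKBH5, and read by proteins with a YTH domain. It is known to be frequent around stop codons and in long internal exons, and GGAC is a core of its preferred sequence. In MeRIP-seq, fragments that an antibody pulls down are sequenced, and places where they pile up are called as peaks. A peak can run across a splice junction, and the lists then record it as several exon blocks. Antibodies raised against the modified base differ in affinity and in the neighbouring marks they bind.

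Overlapping peaks on 1 strand were merged over all 6 immunoprecipitates into regions, and a region or gene counted as called by a list that held a peak there. At least 1 of the 4 lists called 21497 regions. Of these, 516 were called in both replicate 1 lists and neither replicate 3 list, which is 2.4% of all. Called in both replicate 3 lists and neither replicate 1 list were 2210 regions, or 10.3%. A further 8191 regions (38.1%) were called in all 4 lists, and 10580 had other patterns. By gene, 139 of 10512 genes (1.32%) were called with replicate 1 alone and 768 (7.31%) with replicate 3 alone, while 6182 genes were called in all 4 lists. These shares are set by the rule and by the lengths of the lists, and no test was made of them.

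**Figure D1:**
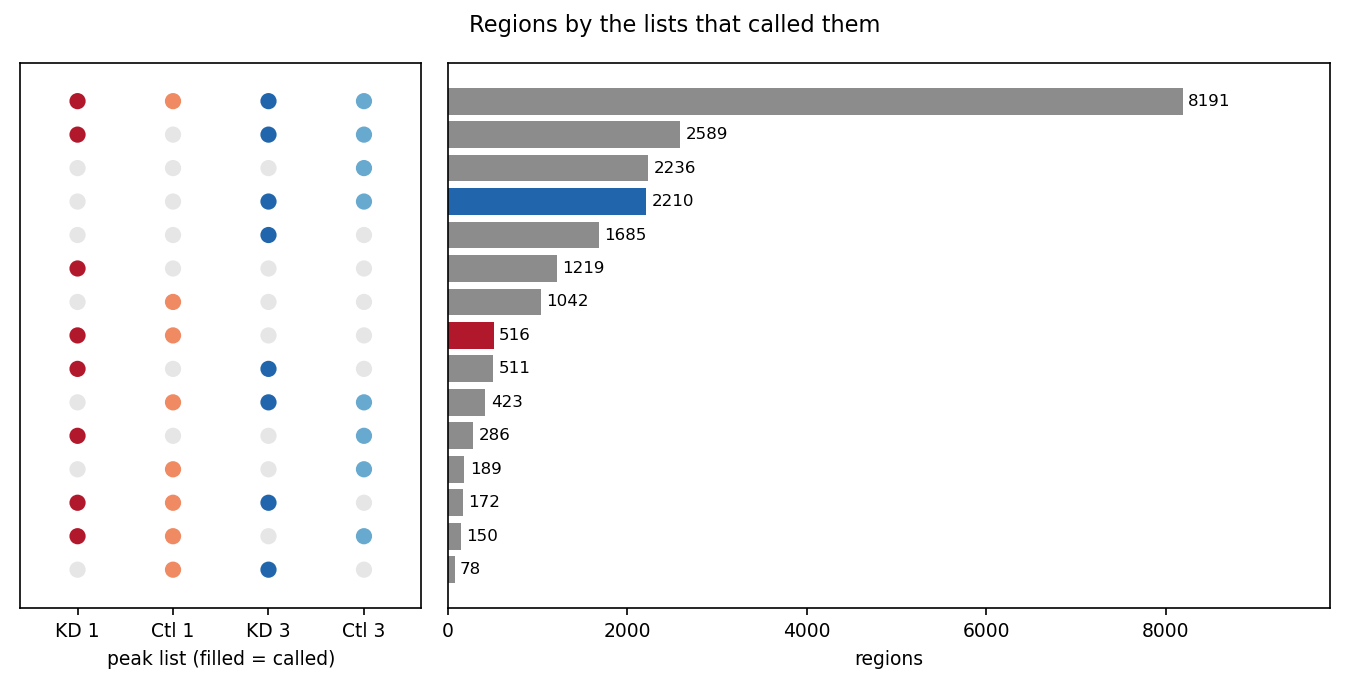
Regions by the lists that called them. Filled dots mark the lists of a pattern (KD knockdown, Ctl control, with the replicate number) and bars give the number of regions. The red bar is the 516 regions of replicate 1 alone, the blue bar the 2210 of replicate 3 alone, and the longest bar the 8191 called in all 4.

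Most regions that both lists of 1 number called also had a call in the other number. Of the 9029 regions that both replicate 1 lists called, 94.3% had a call in at least 1 replicate 3 list. Of the 13413 regions that both replicate 3 lists called, 83.5% had a call in at least 1 replicate 1 list. Over all 21497 regions, 18720 had a call in at least 1 replicate 3 list and 15366 in at least 1 replicate 1 list. Just outside the rule lay 322 regions called in both replicate 1 lists and 1 replicate 3 list, and 3012 called in both replicate 3 lists and 1 replicate 1 list. The most frequent pattern after all 4 lists, with 2589 regions, lacked the control list of replicate 1 alone.

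The order of these counts depended on how much each list covered. Every list was shortened to its best-scored peaks so that it covered as much exon as the control list of replicate 1. This kept all 15139 peaks of that list, 6695 of the knockdown list of replicate 1, and 4397 and 4665 of the replicate 3 lists. The cut thus took most peaks of replicate 3, which in part fixes the counts that follow. So shortened, the lists gave 1319 regions and 832 genes with replicate 1 alone, and 23 regions and 9 genes with replicate 3 alone. Of the original regions, 51 of 516 and 3 of 2210 were among them. With lists of an equal number of peaks, 539 and 1435 regions were called, and the order held. Leaving out a list makes the rule easier to meet: without the knockdown or the control list of replicate 1, 1558 and 1735 regions and 346 and 355 genes were called with replicate 1 alone. Without the knockdown or the control list of replicate 3, replicate 1 alone called 228 and 212 genes, and replicate 3 alone called 4446 and 3895 regions. Without the knockdown list of replicate 1, replicate 3 alone called 4799 regions and 2073 genes, and without its own knockdown list it called 1351 genes.

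Small RNA genes show how a call by gene number can part from a call by place. Of 13 microRNA genes with a peak in the 4 lists, 4 were called by gene number with replicate 3 alone, and none with replicate 1 alone or in all 4 lists. Over all genes, 7.31% were called with replicate 3 alone and 1.32% with replicate 1 alone. The mature sequences of the 4 are shown because for 3 of them a host messenger covers the same place. They were matched by symbol and are those of RefSeq (GRCh38.p14), written 5′ to 3′ with the seed, bases 2 to 8, in capitals.
hsa-miR-922: gCAGCAGAgaauaggacuacguc
hsa-miR-935: cCAGUUACcgcuuccgcuaccgc
hsa-miR-1306-5p: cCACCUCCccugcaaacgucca
hsa-miR-1306-3p: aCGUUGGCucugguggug
hsa-miR-1260b: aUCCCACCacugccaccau
No seed was shared among the 5. The letters GGAC, searched on the given strand, occurred in the hairpin of MIR922 and in neither that of MIR935 nor that of MIR1260B, and 415 of the 1519 hairpins of the table (27.3%) held them.

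The peak given to MIR922 was 81 nt long in both replicate 3 lists (hg19 chr3:197401367-197401447, minus strand). That given to MIR935 was 91 nt (chr19:54485561-54485651, plus strand), and that given to MIR1260B was 89 nt (chr11:96074602-96074690, plus strand). Each of these equals the length of the hairpin. Only lengths were compared, as the hairpins were given in GRCh38.p14, so whether the peak had the extent of the annotated gene was not checked. The peak of MIR1306 was 85 nt (chr22:20073581-20073665, plus strand). By place, 3 of the 4 were not particular to replicate 3. MIR922 lay in a region called in all 4 lists under RUBCN, MIR935 in such a region under CACNG8, and MIR1306 in such a region under DGCR8, which encodes a partner of Drosha in microRNA processing. The region of MIR1260B alone was called in both replicate 3 lists and neither replicate 1 list, with percentiles of 1.48 and 6.70. A percentile here ranks a peak's score within its own list, with 100 the best.

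The lists of replicate 3 held longer peaks. Median peak length, summed over exon blocks, was 269 nt in the knockdown and 209 nt in the control list of replicate 1, and 331 nt in each list of replicate 3. The mean of the list medians was 239 nt ± 42.4 (SD, n = 2) for replicate 1 and 331 nt for replicate 3, without overlap. The lists covered 5746 and 3661 kb of exon in replicate 1 and 7855 and 7854 kb in replicate 3. Peaks over 1000 nt made up 4.10% and 1.08% of the replicate 1 lists and 9.43% and 8.50% of the replicate 3 lists. Peaks of at most 100 nt made up 15.2% and 21.5%, and 11.0% and 10.3%. Called genes held more and shorter peaks in replicate 1, with 1.95 and 1.98 peaks per gene against 1.85 and 1.84. In the two-sided exact permutation test each of these measures gave p = 0.333, the smallest that 2 lists against 2 allow. The lists of 1 number come from different siRNAs, so their spread holds the siRNA difference as well.

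**Figure D2:**
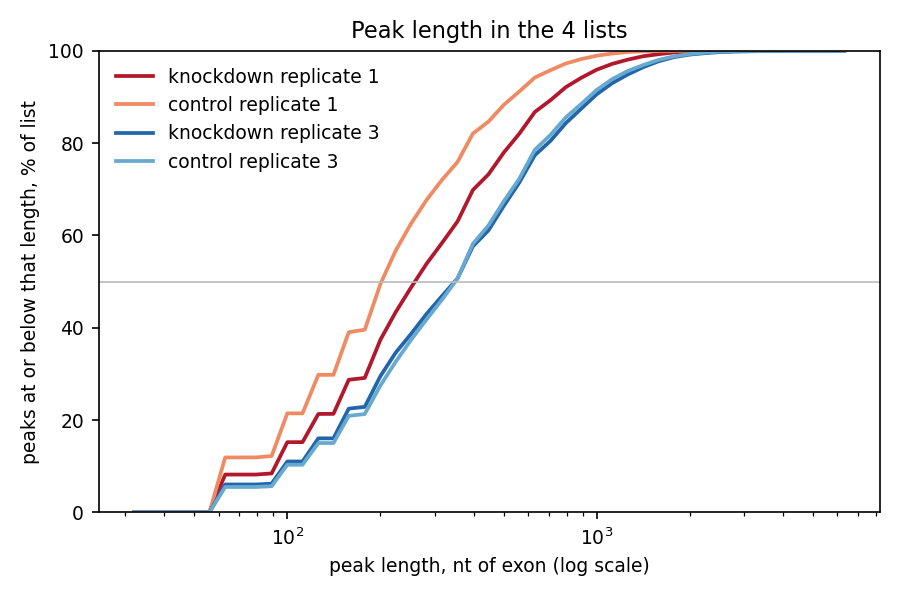
Cumulative share of peaks (percent of the list) by peak length (nt of exon, log scale) in the 4 lists. The curves of replicate 3 lie on each other and to the right, with medians of 331 nt, and those of replicate 1 reach 50% at 209 nt (control) and 269 nt (knockdown).

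The same place was also drawn longer in replicate 3. Over the 8191 regions called in all 4 lists, the covered exon length was greater in replicate 3 in 79.5% of regions with ALKBH5 siRNA and 92.9% with scrambled siRNA. The median ratio of replicate 3 to replicate 1 was 1.25 with ALKBH5 siRNA and 1.82 with scrambled siRNA, with quartiles of 1.06 to 1.58 and 1.37 to 2.65. In 6255 regions (76.4%) replicate 3 was longer with both siRNAs, and in 255 (3.11%) replicate 1 was. Replicate 1 more often split such a region into more peaks, in 19.6% and 24.4% of regions, against 5.57% and 5.52% for replicate 3. By gene, 4860 of 6182 genes had more covered exon in replicate 3 with both siRNAs and 208 had more in replicate 1.

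**Figure D3:**
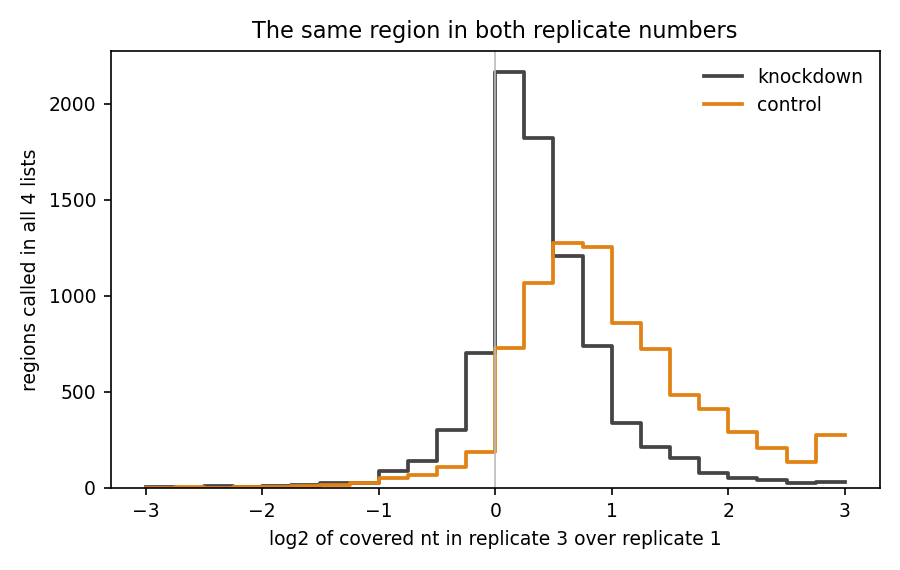
Ratio of covered exon length in replicate 3 to that in replicate 1 (log2) for the 8191 regions called in all 4 lists, with ALKBH5 siRNA and scrambled siRNA apart. Counts lie mostly right of 0, with median ratios of 1.25 and 1.82, and the outermost steps hold all more extreme ratios.

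The 5 genes with the most extreme difference in favour of replicate 3 were AHNAK, AHNAK2, ALMS1, ZFHX4 and BSN. AHNAK, a giant scaffold protein, had 3369 and 814 nt covered in the knockdown and control lists of replicate 1 and 9660 and 9871 nt in those of replicate 3 (chr11:62284392-62301529). AHNAK2, its relative, had 12394 and 5505 nt against 16043 and 13503 nt. In ALMS1, a centrosome and basal body gene, the values were 3877 and 2107 nt against 7469 and 7377 nt. ZFHX4, a zinc finger homeobox gene, had 4115 and 3302 nt against 7621 and 6813 nt, and BSN, a presynaptic scaffold, 1777 and 815 nt against 5410 and 4183 nt. In these 5 genes both replicate 3 values lay above both replicate 1 values, and the genes were chosen for that.

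A few genes ran the other way. SMC1A, a cohesin subunit, had 993 and 1113 nt covered in replicate 1 and 271 and 390 nt in replicate 3 (chrX:53401250-53442113, minus strand). CACNG8, an AMPA receptor auxiliary subunit, had 1115 and 1145 nt against 482 and 241 nt, although the microRNA in it was numbered with replicate 3 alone. ZNHIT6, which takes part in box C/D snoRNP assembly, had 779 and 689 nt against 270 and 61 nt. PRPF38B, a splicing factor, had 720 and 780 nt against 241 and 331 nt. CCDC102A had 1500 and 1594 nt against 1054 and 601 nt. The 5 were the most extreme by rule, and no test is given for them.

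Peaks of the regions called with 1 number alone were short in both directions. In regions of replicate 1 alone the median peak was 151 nt in each list. In regions of replicate 3 alone it was 180 nt and 181 nt. Peaks in regions called in all 4 lists had medians of 360 and 238 nt in replicate 1 and 540 and 539 nt in replicate 3. They also ranked lower by score within each list, with median percentiles of 31.7 and 42.9 for replicate 1 alone and 24.8 and 27.5 for replicate 3 alone, against 55.4 to 71.8 in the regions of all 4. Joined over lists, the median region was 211 nt long for replicate 1 alone, 240 nt for replicate 3 alone and 690 nt for all 4. Regions just outside the rule lay between, at 301 nt for the 322 of replicate 1 and 385.5 nt for the 3012 of replicate 3. All regions of other patterns together were shorter still, with a median of 180 nt. Their peaks had medians of 150 and 120 nt in replicate 1 and 181 nt in each replicate 3 list. The median percentiles of those peaks ran from 25.9 to 29.5, so short and low-ranked peaks are not particular to regions of 1 number. The median length moved with the composition of the lists: it was 121 nt for replicate 1 alone without either of its lists, 150 and 151 nt for replicate 3 alone without its control or knockdown list, and 389 and 450 nt in the best-scored 50% of each list.

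The directions parted in exon blocks. Of the 516 regions of replicate 1 alone, 252 (48.8%, 95% Wilson interval 44.5 to 53.1%) held a peak that ran over more than 1 exon block. Of the 2210 regions of replicate 3 alone, 228 did (10.3%, 9.12 to 11.7%). In 180 of the 516 and 111 of the 2210 both lists drew several blocks. These intervals cover counting error only, and regions of 1 list are not independent replicates. Regions of all 4 lists stood between, at 34.4%, although they were far longer. Over all 21497 regions the share was 24.1%, and over those of other patterns 17.8%.

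Over whole lists the order was not the same. Peaks with several blocks made up 14.4% and 11.3% of the replicate 1 lists and 17.3% and 14.2% of the replicate 3 lists (two-sided exact permutation p = 0.667). In the regions of 1 number alone they made up 40.8% and 41.0% of replicate 1 peaks and 7.18% and 7.38% of replicate 3 peaks. At equal length the gap stayed: among peaks over 100 and up to 200 nt the shares were 40.1% and 42.5% against 6.68% and 6.85%, and among those over 200 and up to 400 nt 56.8% and 51.9% against 10.2% and 8.17%. In regions of all 4 lists, peaks over 100 and up to 200 nt had several blocks in 6.16% and 5.51% of cases in replicate 1 and 8.40% and 10.3% in replicate 3. The share for replicate 1 alone was 31.3% without its control list. That for replicate 3 alone was 21.4% in the best-scored 50% of each list, against 40.9% for replicate 1 alone. At equal covered length it was 24.0% against 39.1%, the latter over 23 regions, so there the direction turned.

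**Figure D4:**
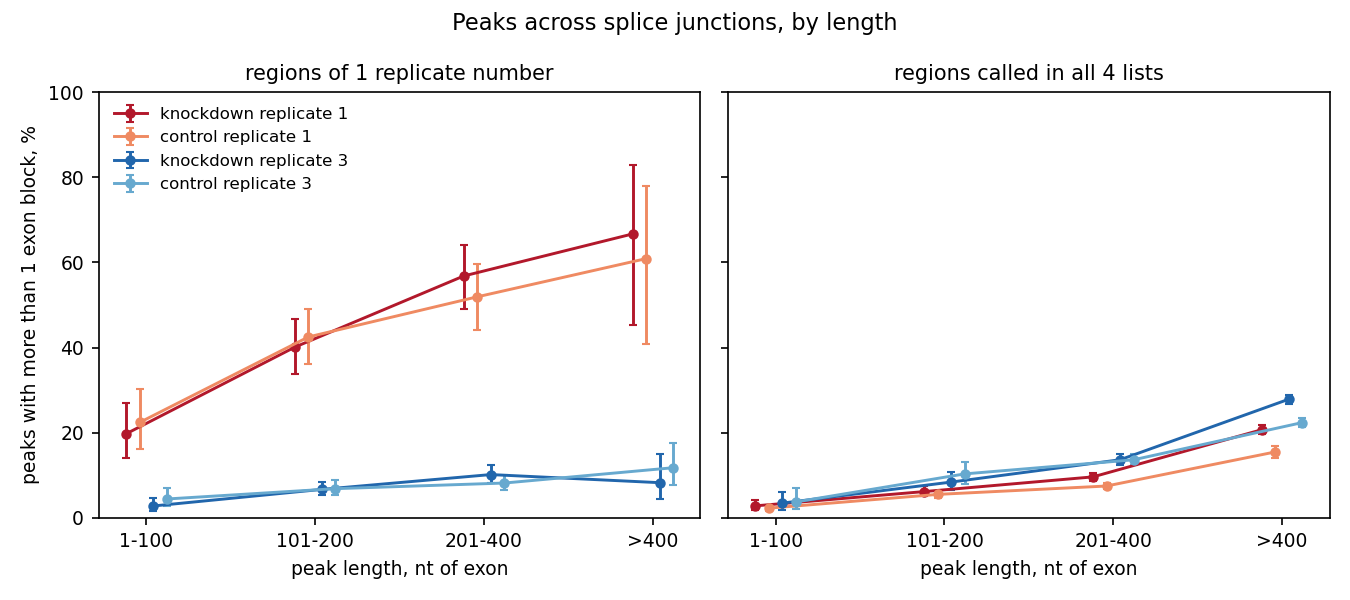
Share of peaks with more than 1 exon block (percent, with 95% Wilson intervals) by peak length class, for regions of 1 replicate number alone (left) and regions of all 4 lists (right). On the left, replicate 1 lies at 40.1% and 42.5% and replicate 3 at 6.68% and 6.85% over 100 and up to 200 nt, and on the right the 4 lists lie between 5.51% and 10.3% there and between 15.5% and 27.9% over 400 nt.

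Regions outside the rule, called in exactly 1 of the 4 lists, gave the same order. They had several blocks in 26.7% of 1219 regions in the knockdown list and 37.2% of 1042 in the control list of replicate 1. In replicate 3 the shares were 10.6% of 1685 and 6.08% of 2236, against 24.1% of all regions. The lists of the 2 numbers did not overlap, and the exact permutation p was 0.333, the smallest possible. The regions are others, but the libraries are those of the rule, and absence from both lists of the other number is part of it. The test is therefore no separate support.

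Regions with several blocks led the ranking for replicate 1. HMGN5, a nucleosome-binding protein, had peaks of 629 nt (knockdown) and 659 nt (control) at chrX:80370068-80371729 (minus strand), with percentiles of 99.4 and 99.8 in their lists and no replicate 3 peak there. CALD1, the actin-binding caldesmon, had 839 and 899 nt at chr7:134617917-134620485, with percentiles of 96.9 and 99.6. In MYO6, a myosin motor, the peaks of 390 and 330 nt ran over 4 and 3 exon blocks (chr6:76599858-76603672). The control peaks of HMGN5 and CALD1 lay in 1 block, and the knockdown peaks in 2.

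PLEKHO2 had peaks of 417 and 209 nt over 4 and 2 blocks (chr15:65134112-65152156). MEF2C, a transcription factor of muscle and other mesodermal cells, had 391 and 301 nt over 3 blocks each (chr5:88100474-88178851, minus strand). ARID4A, an RB-binding chromatin protein, had 211 and 330 nt over 2 and 3 blocks (chr14:58817865-58825864). BAZ2A, a subunit of a nucleolar remodelling complex, had 391 and 361 nt over 3 blocks each (chr12:56998978-57000083, minus strand). PLEKHA4 was the only one of the 8 with 1 block in both lists, with 390 and 420 nt (chr19:49371465-49371884, minus strand). PLEKHO2, ARID4A and BAZ2A each had another region that all 4 lists called. In 5 of the 8, HMGN5, MYO6, PLEKHO2, ARID4A and BAZ2A, a replicate 2 list also had a peak.

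The best-ranked regions of replicate 3 alone each lay in 1 block. GATC, a subunit of the mitochondrial glutamyl-tRNA amidotransferase, had peaks of 481 and 541 nt (knockdown and control) at chr12:120897840-120898380, with percentiles of 82.4 and 84.7. ST6GALNAC4, a sialyltransferase, had 446 and 327 nt (chr9:130670343-130670788, minus strand), and USP37, a deubiquitinase, 271 and 361 nt (chr2:219319349-219319709, minus strand). Neither replicate 1 list had a peak in these 3 genes at all. The percentiles of the 8 leading regions ran from 72.3 to 84.7 for replicate 3, and from 78.4 to 99.8 for replicate 1.

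The other 5 lay in genes with further peaks. ARID1B, a BAF chromatin remodelling subunit, had 480 and 390 nt at chr6:157521918-157522397, among 9 regions of which 3 were called in all 4 lists. LRFN5, a synaptic adhesion molecule, had 3 peaks that covered 783 nt with ALKBH5 siRNA and 1 peak of 1141 nt with scrambled siRNA (chr14:42355873-42357013). TENT4A, a noncanonical poly(A) polymerase, had 389 and 269 nt (chr5:6756624-6757012). PAK4, a serine/threonine kinase, had 358 nt in each list (chr19:39669213-39669600), and SALL1, a zinc finger repressor, had 360 and 480 nt (chr16:51174973-51175482, minus strand). Only the region of ARID1B also had replicate 2 peaks, of 181 and 61 nt.

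Position along the gene also differed. Among genes with at least 3 regions, each region was ranked from the 5′ end. Of 271 ranked regions of replicate 1 alone, 111 (41.0%, interval 35.3 to 46.9%) came first and 29 (10.7%) last. Of 982 of replicate 3 alone, 178 (18.1%, 15.8 to 20.7%) came first and 316 (32.2%) last. Over all 9956 ranked regions 25.6% came first and 25.6% last. With genes of at least 5 regions the first-place shares were 21.0% and 13.6%, against 16.1% for all, and the last-place shares 11.1% and 19.5%. At equal covered length they were 29.4% and 25%, with 8 ranked regions of replicate 3 alone, and last place took 20.7% and 50%.

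The places relative to shared regions gave a like picture. In genes that also held a region called in all 4 lists, 165 of 253 regions of replicate 1 alone (65.2%) lay 5′ of every shared region and 58 (22.9%) lay 3′. For replicate 3 alone, 300 of 893 (33.6%) lay 5′ and 445 (49.8%) lay 3′. Regions of other patterns stood between, at 46.3% and 39.2%. The median genomic distance to the nearest shared region, introns included, was 5590 nt for replicate 1 alone and 1286 nt for replicate 3 alone. Several blocks were frequent in replicate 1 regions on either side, at 52.1% 5′ and 41.4% 3′, while for replicate 3 they were 19.3% and 7.42%.

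**Figure D5:**
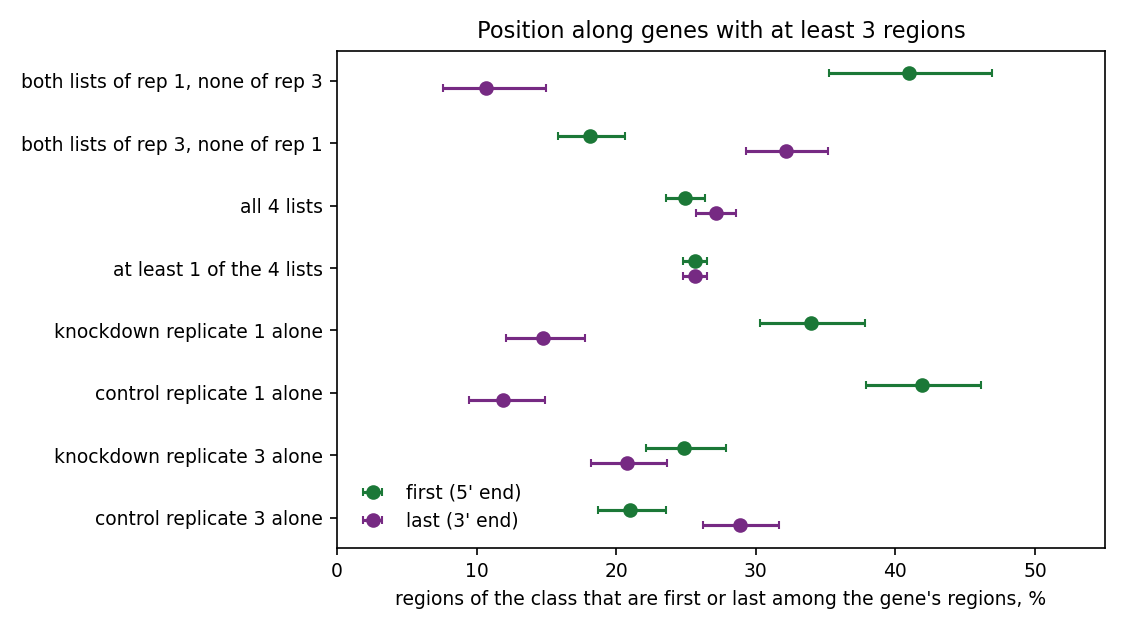
Share of regions (percent, with 95% Wilson intervals) that come first (green) or last (purple) from the 5′ end in genes with at least 3 regions, by the lists that called them. Regions of replicate 1 alone come first in 41.0% and last in 10.7%, those of replicate 3 alone in 18.1% and 32.2%, and regions of single lists follow their number.

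Single-list regions kept that order. They came first in 33.9% and 41.9% of cases in the knockdown and control lists of replicate 1 and in 24.9% and 21.0% in those of replicate 3. They came last in 14.7% and 11.9%, and in 20.8% and 28.8%. The exact permutation p was again 0.333, the smallest possible, and as for blocks it is no separate support. No gene annotation of hg19 was used here, so first and last refer to the called regions of a gene and not to its UTRs or coding part.

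Most such regions lay in genes where at least 1 list of the other number also had a peak. Of 499 regions of replicate 1 alone with 1 gene number, 385 (77.2%) lay in a gene with a replicate 3 peak elsewhere. For 337 (67.5%) both replicate 3 lists had one. Of 2095 of replicate 3 alone, 1320 (63.0%) lay in a gene with a replicate 1 peak elsewhere. For 988 (47.2%), which is not most, both replicate 1 lists had one. Over all 10512 genes, 9950 had a peak in a replicate 3 list and 8794 in a replicate 1 list. The gene of MYO6, with other patterns elsewhere, and that of BAZ2A, shared by all 4 lists elsewhere, are examples of genes with a replicate 3 peak elsewhere. CALD1, CACNG8 and SMC1A held 3 regions of replicate 1 alone each, and all those of CALD1 and SMC1A had several blocks. TTN, the giant sarcomere protein, held 8 regions of replicate 3 alone among its 18, of which 5 had several blocks. CEP170, a centrosomal protein, held 6 of 8, and FREM2, an extracellular matrix protein, and DNHD1, a dynein heavy chain relative, held 5 each.

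Total RNA of replicate 2, precipitated with a kit antibody (MABE1006), gave an outside reading. Its lists were short, with 5917 and 5677 peaks. Either list called 31 of the 516 regions of replicate 1 alone (6.01%, interval 4.26 to 8.40%) and 83 of the 2210 of replicate 3 alone (3.76%, 3.04 to 4.63%), against 54.9% of the regions of all 4 lists and 24.4% of all regions. Among regions of replicate 1 alone, 28 of 252 with several blocks (11.1%) and 3 of 264 with 1 block (1.14%) were called in replicate 2. Among those of replicate 3 alone the counts were 10 of 228 (4.39%) and 73 of 1982 (3.68%). Leaving out a list moved these shares: to 2.95% and 3.00% for replicate 1 alone without its knockdown or control list, and for replicate 3 alone to 2.43% and 2.49% without its own, and 11.1% without the knockdown list of replicate 1. At equal covered length they were 43.9% and 21.7%, and in the best-scored 50% they were 7.29% and 8.57%, so there the order turned. With equal numbers of peaks they were 7.61% and 7.25%.

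Of the 139 genes of replicate 1 alone, 85 (61.2%) had a peak with several blocks, against 91 of 768 (11.8%) for replicate 3 alone. Over all 10512 genes, 4095 (39.0%) had such a peak in at least 1 of the 4 lists. In 114 of 139 and 732 of 768 genes the 2 lists of the number shared a region, so the gene calls were mostly calls at a common place. The median gene held 1 peak in every list, covering 151 nt in each replicate 1 list, and 181 and 211 nt in the replicate 3 lists.

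The leading genes of replicate 1 alone were YJEFN3 and NDUFA13, a subunit of respiratory complex I. These overlap, and the peaks of YJEFN3 (chr19:19644254-19645448) and NDUFA13 (chr19:19644276-19645444) could not be parted. YJEFN3 had 419 and 629 nt covered in the knockdown and control lists, and NDUFA13 had 421 and 571 nt. PLEKHA4, described above, came next. NAT14, of the N-acetyltransferase family, had 513 and 210 nt (chr19:55997049-55998845). EMP3, a small membrane protein, had 119 and 149 nt (chr19:48828629-48828777). These 5 genes lie on chromosome 19, which held 9.69% of the regions of replicate 1 alone, 6.38% of those of replicate 3 alone and 6.25% of all.

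CCAR1, a transcription coactivator of cell cycle and apoptosis genes, had 331 and 422 nt in up to 3 blocks (chr10:70531055-70549599). RBM25, a splicing regulator, had 421 and 601 nt in up to 4 blocks (chr14:73569923-73576088). SMARCC2, a BAF subunit, had 420 and 210 nt in 4 and 2 blocks (chr12:56561899-56563964, minus strand). CNTNAP1, of the axon-glia junction, had 301 and 180 nt, and AGPAT1, an acyltransferase of phosphatidic acid synthesis, had 450 and 479 nt. CCAR1 and RBM25 also had a peak in the control list of replicate 2, of 61 nt and, over 2 peaks, 212 nt.

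DDX46, a spliceosomal RNA helicase, was the 1 gene of the 139 that both replicate 2 lists also called. It had 389 nt in each replicate 1 list, in peaks of 4 blocks (chr5:134102741-134113379), and 181 and 151 nt in replicate 2. Neither replicate 3 list had a peak in it.

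Among the genes of replicate 3 alone, GATC, ST6GALNAC4 and USP37 led, as among regions. PLAUR, the urokinase receptor, had 660 and 630 nt covered over 2 peaks in each list (chr19:44150277-44153137, minus strand). GATAD1, a GATA zinc finger protein, had 299 and 329 nt (chr7:92085710-92086068), and RHBDF1, an inactive rhomboid protein, 270 and 390 nt (chr16:108058-108447, minus strand). ARHGAP28 had 390 and 361 nt, and VPS13C, a lipid transfer protein, 301 and 241 nt. ZNF490, a zinc finger gene, had 779 nt over 3 peaks with ALKBH5 siRNA and 1561 nt over 5 peaks with scrambled siRNA (chr19:12688175-12691284, minus strand). COG7, a Golgi tether subunit, had 691 and 631 nt. Each of these 10 had peaks of 1 block only. Of the 10 leading genes of replicate 1 alone, YJEFN3, NDUFA13, PLEKHA4, EMP3 and AGPAT1 also had peaks of 1 block in both lists, and the other 5 had a peak of several blocks.

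Of the 768 genes, 4 were also called in both replicate 2 lists. PFAS, a purine synthesis enzyme, had 480 and 510 nt in replicate 3 and 210 and 61 nt in replicate 2 (chr17:8172462-8173001). TNPO3, an importin for SR proteins, had 392 and 241 nt, and 181 nt in each replicate 2 list. MRPS34, a mitochondrial ribosomal protein, had 177 and 264 nt, and 206 and 118 nt. RDH11, a retinal reductase, had 360 and 807 nt, and 150 and 211 nt. For these 4, as for DDX46, the gene was missing from 1 number of the poly(A) lists and present in the other 4 lists of the series.

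By gene type, 134 of the 139 genes of replicate 1 alone were protein coding (96.4%) and 676 of 768 of replicate 3 alone (88.0%), against 92.4% of all 10512. Long noncoding genes were 4 of 139 (2.88%, interval 1.12 to 7.17%) and 58 of 768 (7.55%, 5.89 to 9.64%), against 5.18% of all. Transcribed pseudogenes were 1 of 139 (0.719%) and 22 of 768 (2.86%), against 1.85% of all. Among 413 genes with names of long noncoding RNAs, 4 (0.969%) were called with replicate 1 alone and 42 (10.2%) with replicate 3 alone, and 193 (46.7%) in all 4 lists, against 1.32%, 7.31% and 58.8% of all genes. LINC01000 had 965 and 1020 nt covered in replicate 3, over 6 and 4 peaks. SRP14-DT, divergent to SRP14, had 780 and 1169 nt. MSC-AS1, antisense to MSC, had 211 and 271 nt in replicate 1.

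The zinc finger genes were mostly common to both numbers. Of 387 ZNF genes with a peak, 332 (85.8%) were called in all 4 lists, 11 (2.84%) with replicate 3 alone and 3 (0.775%) with replicate 1 alone, against 58.8%, 7.31% and 1.32% of all genes. ZNF573 had 449 and 804 nt in replicate 3, and ZNF326 had 330 and 240 nt in replicate 1. Of 38 ZBTB transcription factors, 37 were called in all 4 lists and none with 1 number alone. Of 36 homeobox HOX genes, 30 were called in all 4, and HOXD10 with replicate 3 alone (356 and 179 nt). Of 46 KLHL, KBTBD and KCTD adaptors of ubiquitin ligases, 39 were called in all 4 lists, and of 15 histone lysine demethylases 14 were. Each of these shares lies above the 58.8% of all genes.

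The shares of all genes, 58.8% in all 4 lists, 7.31% with replicate 3 alone and 1.32% with replicate 1 alone, also stand beside the smaller families that follow. Of 43 mitochondrial ribosomal protein genes, 14 (32.6%) were called in all 4 lists, 5 (11.6%) with replicate 3 alone and 0 with replicate 1 alone. MRPL15 had 268 and 208 nt and MRPL41 202 and 173 nt in replicate 3. Of 18 proteasome genes, 5 (27.8%) were called in all 4 lists and 3 (16.7%) with replicate 3 alone. These were PSMG3, an assembly chaperone, with 148 nt in each list, PSMD9 with 150 and 180 nt, and PSMD13 with 180 and 60 nt. Of 12 cytoplasmic ribosomal protein genes, 3 were called in all 4 lists. RPL36A was called with replicate 1 alone (298 and 209 nt) and its close paralog RPL36AL with replicate 3 alone (204 and 289 nt). Whether reads were shared out between these copies was not tested.

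Of 23 genes of SR proteins and hnRNPs, which govern splicing, 8 (34.8%) were called in all 4 lists, 3 (13.0%) with replicate 3 alone and 1 (4.35%) with replicate 1 alone, against 58.8%, 7.31% and 1.32% of all genes. Counts this small carry no statement about the family. SRSF5 had 301 and 331 nt, HNRNPR 447 and 506 nt and SRSF10 151 and 270 nt in replicate 3. HNRNPAB had 181 and 391 nt in replicate 1. Of 44 DEAD and DEAH box helicases, 23 were called in all 4 and 2 in each direction alone, DDX46 and DDX27 with replicate 1 and DDX59 and DHX37 with replicate 3. Of 21 translation initiation factor subunits, EIF2S1, a subunit of eIF2, was called with replicate 1 alone (151 and 181 nt) and EIF2B2, of its exchange factor, with replicate 3 alone.

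Of 195 solute carriers, 115 (59.0%) were called in all 4 lists, near the 58.8% of all genes, 9 (4.62%) with replicate 3 alone, against 7.31% of all, and SLC6A6, the taurine transporter, with replicate 1 alone (180 and 151 nt). Of 19 collagens, 12 (63.2%) were called in all 4 and 3 with replicate 3 alone, namely COL8A2 (777 and 150 nt), COL4A2 (151 and 91 nt) and COL4A6 (91 and 61 nt). Of 41 clustered protocadherins only 4 were called in all 4 lists and 35 had other patterns. Whether peaks were shared out among these similar genes was not tested. Of 38 kinesins and dyneins, 20 were called in all 4, 4 with replicate 3 alone and KIF21A with replicate 1 alone.

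For the remaining families, the shares of all genes called with replicate 3 and replicate 1 alone, 7.31% and 1.32%, again stand beside the counts. Of 42 ubiquitin-specific proteases, 30 (71.4%) were called in all 4 lists, against 58.8% of all genes, and 4 (9.52%) with replicate 3 alone, USP37 and USP2 among them. Of 39 TRIM ubiquitin ligases, 30 were called in all 4 lists and TRIM37 with replicate 3 alone. Of 30 centrosomal CEP genes, 22 were called in all 4 and CEP41 with replicate 1 alone (242 and 151 nt). Immediate early genes, the first to answer a stimulus, were called in all 4 lists in 16 of 21 cases, and genes of the p53 and RB pathway in 3 of 7, with none of either called with 1 number alone. Of 19 replication-dependent histone genes 4 were called in all 4 lists, with H4C16 called in replicate 1 alone and H2BC17 in replicate 3 alone. Of 15 respiratory chain genes 6 were called in all 4 lists, with NDUFA13 in replicate 1 alone and NDUFB11 in replicate 3 alone. Of 14 ZC3H genes 8 were called in all 4 lists and ZC3H15 with replicate 3 alone.

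The m6A writer genes were called by both numbers. All 9 had peaks in all 4 lists, against 58.8% of all genes. METTL3, the catalytic subunit, had 507 and 120 nt in replicate 1 and 329 and 90 nt in replicate 3, and METTL14, its partner, 535 and 298 nt against 654 and 772 nt. WTAP, the regulatory subunit, had 992 and 721 nt against 1410 and 1351 nt, and VIRMA, a scaffold of the complex, 1383 and 1051 nt against 1650 and 2070 nt. ZC3H13, which holds the complex in the nucleus, had 2607 and 2247 nt against 2397 and 2249 nt. RBM15, which guides it to RNA, had 2179 and 1585 nt against 2449 and 2567 nt, and its relative RBM15B 2184 and 1528 nt against 2305 and 2423 nt. CBLL1 had 1019 and 150 nt against 959 and 1078 nt. METTL16, a separate methyltransferase, had 928 and 719 nt against 1109 and 1228 nt. In METTL14, WTAP, VIRMA, RBM15, RBM15B and METTL16 both replicate 3 values lay above both replicate 1 values, and in the other 3 the values overlapped. By the looser condition of more covered exon in replicate 3 with both siRNAs, 4860 of all 6182 genes of the 4 lists qualified. The direction was therefore not particular to the writers.

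The erasers and the cap methyltransferase had other patterns. ALKBH5, the target of the siRNA, had a peak only in the control lists, of 210 nt in replicate 1 and 150 nt in replicate 3. These 2 peaks lay in different regions, at percentiles of 48.3 and 17.0, and neither replicate 2 list had one. FTO had 479 nt and no peak in the knockdown and control lists of replicate 1 and 628 and 509 nt in replicate 3. PCIF1, which writes m6Am at the cap, had 330 nt and no peak, and 360 and 330 nt. Both thus missed the rule by 1 list, the knockdown list of replicate 1.

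Of 12 reader genes 10 had a peak and 6 were called in all 4 lists. YTHDF1, YTHDF2 and YTHDF3 are the cytoplasmic YTH readers. YTHDF1 had 1049 and 90 nt against 1705 and 1795 nt, YTHDF2 656 and 746 nt against 1400 and 1550 nt, and YTHDF3 2098 and 1291 nt against 1798 and 1947 nt. The nuclear reader YTHDC1 had 569 and 450 nt against 331 and 390 nt, the reverse order. YTHDC2, a reader with a helicase domain, was the 1 member called with replicate 3 alone, with 151 and 301 nt (chr5:112929065-112929456). That is 10.0% of the 10 readers, against 7.31% of all genes. IGF2BP3, a stabilising reader, had 957 and 628 nt against 899 and 1316 nt, and IGF2BP2 had 151 nt and no peak against 452 and 572 nt. PRRC2A had 1171 and 452 nt against 1500 and 1350 nt. FMR1 and HNRNPC each had a single peak, of 90 nt in the knockdown list of replicate 1 and 61 nt in the control list of replicate 3.

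As a check of the cell label, 4 of 10 osteosarcoma or mesenchymal markers had a peak. SP7, ALPL, COL1A2, SPARC, VIM and FN1 had none in the 4 lists. RUNX2, the osteoblast master regulator, SPP1, osteopontin, and CDH2, N-cadherin, were called in all 4 lists, and COL1A1 in all but the control list of replicate 1. None of 5 epithelial and 3 endothelial markers had a peak. Of 5 blood cell markers CD68 had 181 nt in each replicate 3 list and none in replicate 1. In bulk RNA, fewer cells of a type and less RNA per cell cannot be told apart. A peak shows enriched RNA above a threshold, so a missing peak does not show that a gene is silent.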

How the data were processed

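MeRIP-seq peak lists of 4 immunoprecipitated libraries of poly(A) RNA, and the 2 lists of total RNA (replicate 2), were used. Input samples were left aside. CASAVA 1.8.2, TopHat2, SAMtools and the hg19 build are named, per the submitters' processing notes, with no role. The sources used here do not name the peak caller, its threshold or the use of input. Each list, called per library, gave 12 columns with position, strand, exon blocks, gene number and score. The score the authors deposited was read as a p-value from its range, up to 0.011, and only ranked peaks within a list. It fell with peak length, so percentiles are not independent of length. The number of exon blocks per peak is another of the deposited values. Depth is unknown, as the lists hold no counts, so list length and antibody cannot be told apart from depth, and intervals do not cover it.

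Regions were built from the 6 lists by merging peaks whose blocks shared 1 bp or more on 1 strand. Covered length was the union of blocks. Gene numbers were named through RefSeq (GRCh38.p14, names and gene types only), where 10500 of 10536 matched. Coordinates are hg19, counted from 1. For measures of a list, an exact permutation test (two-sided) of the difference of means was used. Shares carry 95% Wilson intervals. Python 3.11.15, pandas 2.3.3, NumPy 2.4.6, SciPy 1.17.1 and matplotlib 3.10.9 were used, and the joining and classes were checked on simulated lists.

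The members, the 31 gene lists and the rules were chosen with earlier results of these data known, and name patterns of some families were narrowed after their values were seen, to protein-coding genes without antisense or opposite-strand names. Named were, per direction, the 10 genes and 8 regions with the highest lowest within-list percentile, up to 5 genes also in both replicate 2 lists, the 5 genes of all 4 lists with the most extreme difference in covered length, up to 3 members per gene list, and the m6A genes one by one. Alternatives were the best-scored 50%, equal numbers of peaks, equal covered length, each list left out, peaks extended by 100 bp, other overlaps, at least 2 peaks per gene and genes of at least 5 regions. No label says that the libraries came from separate cultures, so p-values measure the spread between these samples.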

Additional observations from a re-analysis of the deposited data

How the results depend on the processing

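No paired analysis was possible because the replicate number is itself the factor compared, so it cannot pair libraries across that factor. Paired by siRNA instead, an exact sign-flip test of 2 differences cannot go below p = 0.5. Counted as moved were counts that changed by over 1.5 times, shares outside the 95% interval of the main share, medians that shifted by more than the SD between the lists of a number, and differences between lists that changed sign. By these bounds 68 values moved and 87 did not, and the bound for medians was so narrow that 1 nt could pass it. The cause was not tested beyond what their construction fixes (shorter lists, or 1 list in place of 2). Values are given for replicate 1 alone and then replicate 3 alone. In the best-scored 50% of each list there were 247 and 933 regions with medians of 389 and 450 nt, several blocks in 40.9% and 21.4%, a replicate 2 call in 7.29% and 8.57%, 483 genes of replicate 3 alone, last place in 16.1% and 35.4%, and first place in 21.97% for replicate 3 alone. With equal numbers of peaks, replicate 3 alone had 1435 regions, 7.25% of them in replicate 2 and 36.4% in last place, and the medians were 240 and 300 nt. At equal covered length there were 1319 and 23 regions and 832 and 9 genes, medians of 420 and 507 nt, several blocks in 24.0% and 39.1%, replicate 2 calls in 43.9% and 21.7%, first place in 29.4% and 25% and last place in 20.7% and 50%. With peaks extended by 100 bp the medians were 212 and 241 nt and the share with several blocks for replicate 1 alone 53.2%. With at least 2 peaks per gene, 312 and 493 genes were called. Genes of at least 5 regions gave first place in 21.0% and 13.6% and last place in 19.5% for replicate 3 alone. Leaving out each list in turn gave 666 to 1735 and 2633 to 4799 regions, 212 to 355 and 976 to 2073 genes, medians of 121 to 240 and 150 to 300 nt, several blocks in 31.3 to 43.7% and 6.93 to 14.2%, and replicate 2 calls in 2.95 to 7.12% and 2.43 to 11.1%.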

Other observations

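Peaks on the opposite strand of the same place were counted for each class. A region of replicate 1 alone had one in 9 of 516 cases (1.74%) and a region of replicate 3 alone in 114 of 2210 (5.16%), against 4.21% of all regions. In 25 of the 114, and in 0 of the 9, the opposite region was called in all 4 lists. Over all regions with an opposite peak this was so in 373 of 906, a higher share. Regions without a gene number were 8 of 516 (1.55%) and 97 of 2210 (4.39%), against 3.64% of all.

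Some genes gathered several regions of 1 number. SLTM, RPGR, PKD2, CHD3 and WEE1 each held 2 regions of replicate 1 alone and no region of all 4 lists. PKDREJ and CSRNP3 each held 3 regions of replicate 3 alone and no region of all 4 lists, while TET1, which oxidises methylated cytosine in DNA, and EIF2AK4, a kinase of the amino acid response, held 3 beside shared regions. These genes were picked by count after their values were seen.

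On chromosome X lay 24 of the 516 regions of replicate 1 alone (4.65%, interval 3.15 to 6.83%) and 64 of the 2210 of replicate 3 alone (2.90%), against 2.83% of all. On chromosome 13 the counts were 5 (0.969%, interval 0.415 to 2.25%) and 44 (1.99%), against 1.87% of all, which that interval holds. These chromosomes are picked from all, and others differed too. Chromosome 12 held 6.98% and chromosome 18 held 0.775% of the regions of replicate 1 alone, against 4.91% and 1.57% of all.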
